A study of Rattus norvegicus with 6 samples.

Results

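The 9 genes described here encode enzymes that sense and mend single-strand breaks in DNA, and they were chosen by gene symbol (Parp1, Parp2, Parp3, Parg, Polb, Lig3, Apex1, Apex2 and Aptx) among the 18930 rows of the deposited count table. Each symbol stood on 1 row, and all 9 genes had enough reads to be tested, with 129 to 2565 reads per sample. The cells were NRK-52E, an established epithelial line of the rat kidney with the genotype WT, and RNA was sequenced from 3 vehicle-treated samples (Control) and 3 samples kept in streptozotocin (STZ) at 10 mM for 24 h. The line is a culture model of the tubule and 1 dose and 1 time were sequenced, so neither dose dependence nor a time course could be examined. The sources used here do not say whether the samples of a group were separate cultures, and p-values then measure the spread between these samples, which may be technical. Because RNA was measured in bulk, fewer cells of a kind and less RNA per cell cannot be told apart.

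STZ is a nitrosourea attached to a sugar, and it methylates DNA bases. In base excision repair a DNA glycosylase removes the damaged base, an AP endonuclease cuts the strand at the empty site, a polymerase fills the gap and a ligase seals it. The cut strand is recognized by poly(ADP-ribose) polymerases (PARPs), which spend NAD+ to build chains of ADP-ribose that draw in the repair proteins, and a glycohydrolase takes these chains down again. In pancreatic beta cells, loss of NAD+ through overactive PARP1 is a known part of STZ toxicity.

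Of the 9 genes, 4 were lower and 1 was higher in STZ-treated cells than in Control at an adjusted p-value under 0.05, and the other 4 did not pass. Parp1, Parp2, Lig3 and Apex1 fell and Parp3 rose. The share of genes called, 55.6%, was close to the 50.9% called among all 11870 genes tested, so a call as such did not set these genes apart. By direction, 44.4% of the 9 genes were lower and 11.1% higher, where 25.1% of all genes were lower and 25.9% higher. None of the 9 passed the pair of cutoffs that the study set (adjusted p below 0.05, and more than 1 on the log2 scale in either direction), which 3.37% of all genes passed; 7 of the 9 had an unadjusted p under 0.05, as did 55.9% of all genes, and DESeq2 and limma-voom likewise placed 0 of the 9 past both thresholds. The median log2 fold change of the 9 genes was 0.07, against -0.01 for all genes, and the median of its absolute size was 0.29 against 0.19. Levels are given as CPM, the reads of a gene scaled to a common library size. Fold changes with their standard errors (SE) come from the quasi-likelihood test in edgeR, and every adjusted p was corrected by the Benjamini-Hochberg method across the whole set of tested genes.

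The 3 PARPs that respond to DNA strand breaks moved in opposite directions, and the bases before their annotated starts are shown here because these 3 genes carry that contrast. They are RefSeq sequences of the GRCr8 build, 250 bases each, read 5′ to 3′ on the strand of the gene, and capitals mark GGGCGG on either strand, the core of a GC box.
Parp1, chr13:94839234-94839483, plus strand: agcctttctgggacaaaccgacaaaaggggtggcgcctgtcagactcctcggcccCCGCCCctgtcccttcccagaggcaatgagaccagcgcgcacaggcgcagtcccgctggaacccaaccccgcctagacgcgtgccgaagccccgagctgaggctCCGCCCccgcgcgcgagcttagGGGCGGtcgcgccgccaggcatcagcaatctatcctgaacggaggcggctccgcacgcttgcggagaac
Parp2, chr15:26507409-26507658, plus strand: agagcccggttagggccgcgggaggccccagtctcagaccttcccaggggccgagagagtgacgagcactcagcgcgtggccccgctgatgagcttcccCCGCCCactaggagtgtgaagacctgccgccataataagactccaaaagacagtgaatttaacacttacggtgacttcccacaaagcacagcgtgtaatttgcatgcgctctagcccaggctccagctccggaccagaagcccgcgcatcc
Parp3, chr8:115995473-115995722, minus strand: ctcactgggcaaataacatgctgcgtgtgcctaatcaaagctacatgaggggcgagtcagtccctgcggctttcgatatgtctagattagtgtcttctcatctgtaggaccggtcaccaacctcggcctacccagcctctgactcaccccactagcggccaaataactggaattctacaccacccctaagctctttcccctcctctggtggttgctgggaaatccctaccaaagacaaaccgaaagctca

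Parp1 held 3 GC boxes in this window, Parp2 held 1 and Parp3 held 0. The annotated starts of Parp2 and Parp3 lie within a gene on the opposite strand, Ccnb1ip1 and Rrp9 in that order. Their windows may therefore be shared with these genes, while the left neighbour of Parp1 does not overlap it. Sequences were found for 7 of the 9 genes (all but Polb and Apex2), and 4 of the 7 held a GC box, as did 30.5% of 33469 windows of the same length. The letters CCAAT, the NF-Y box, were found on either strand in 2 of the 7, Apex1 and Aptx, and in 34.0% of all windows. The E2F letters TTCCCGC or TTGGCGC were found in Apex1 alone of the 7 and in 5.0% of all windows, and in Apex1 the TTGGCGC lay beside a CCAAT without overlapping it. CCGGAAG, an ETS core, was found in Parg, Lig3 and Aptx and in 7.27% of all windows. A full p53 response element was found in 0 of the 7 and in 0.0388% of all windows. The GC content of the 7 windows ran from 51.2% to 70.8%, with a median of 51.2% over all windows. These matches describe letters only and say nothing of binding.

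Parp1 encodes the main poly(ADP-ribose) polymerase of the nucleus. It stood at 205, 192 and 200 CPM in the Control samples and at 151, 153 and 142 CPM in the STZ samples. Every STZ sample was below every Control sample. The mean was 199 ± 6.38 CPM in Control and 148 ± 5.73 CPM in STZ (SD, n = 3 each), and Parp1 fell by 25.4%. The log2 fold change was -0.42 (SE 0.04, adjusted p = 2.8e-11).

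Parp2, a smaller PARP that is also switched on by breaks and overlaps in function with PARP1, stood at 55.3, 59.8 and 60.4 CPM in Control and at 41.2, 40.9 and 43.4 CPM in STZ. The groups did not overlap here either. Parp2 fell by 28.5%, the largest fall of the 9 genes, with a log2 fold change of -0.48 (SE 0.06, adjusted p = 4.4e-09). Its 95% interval, from -0.60 to -0.36, contained the fold change of Parp1, and the ratio of Parp1 to Parp2 reads within a sample was 3.40 ± 0.26 in Control and 3.55 ± 0.25 in STZ (SD, n = 3 each), with overlapping groups.

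Parp3, which attaches single ADP-ribose units at breaks and is linked to double-strand break repair, was the 1 gene that rose. It stood at 113, 119 and 119 CPM in Control and at 156, 164 and 160 CPM in STZ. The lowest STZ sample was well above the highest Control sample. The mean was 117 ± 3.28 CPM in Control and 160 ± 3.63 CPM in STZ (SD, n = 3 each), a rise of 36.3% and a log2 fold change of 0.45 (SE 0.04, adjusted p = 1.1e-11), the smallest p of the 9 genes.

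**Figure D1:**
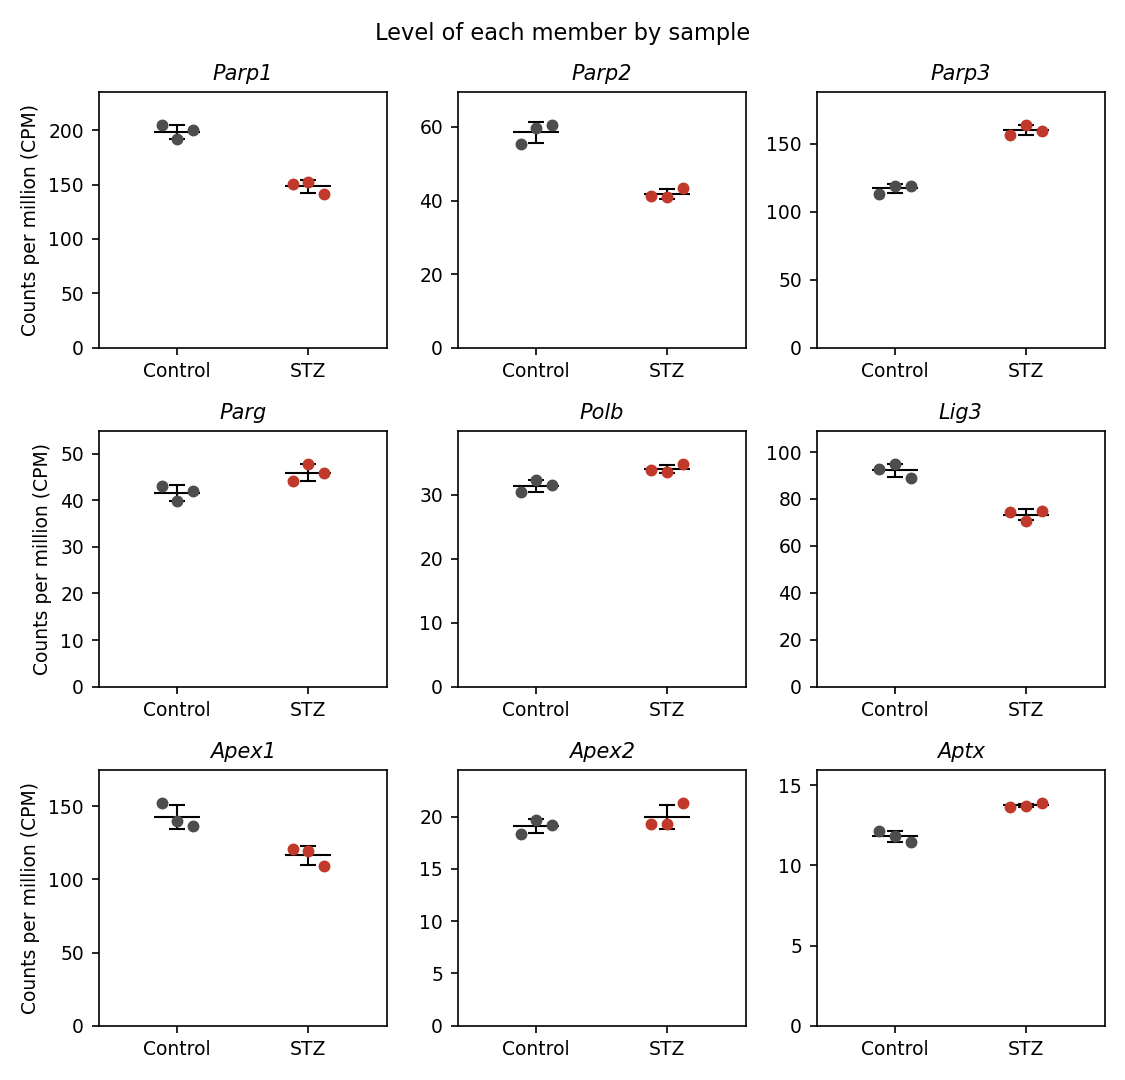
Level of each of the 9 genes in CPM (linear axes from 0), with 1 dot per sample (3 Control, 3 STZ) and the mean with its SD as a dash and bars. Parp1, Parp2, Lig3 and Apex1 lie lower in all STZ samples and Parp3 higher, while the Apex2 samples overlap.

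Parg encodes the glycohydrolase that cuts poly(ADP-ribose) chains. Its levels were 43.0, 39.7 and 42.0 CPM in Control and 44.1, 47.7 and 45.8 CPM in STZ. All STZ samples were above all Control samples, by about 1 CPM at the nearest, and the log2 fold change was 0.14 (SE 0.06) with an adjusted p of 0.058, which did not pass. Without STZ replicate 1 the log2 fold change was 0.17 and the adjusted p from the same edgeR test was 0.042. Leaving out any other single sample gave adjusted p from 0.054 to 0.207 by that test, and DESeq2 on all samples gave 0.147, so none of these passed. The 95% interval over all samples ran from 0.01 to 0.26, so a rise beyond 0.26 on the log2 scale lay outside it.

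Apex1, the main AP endonuclease of the cell, stood at 152, 140 and 136 CPM in Control and at 121, 120 and 109 CPM in STZ. The groups did not overlap, though the samples of each group were more spread than for the PARPs, with a coefficient of variation of 5.73% in Control and 5.57% in STZ. Apex1 fell by 18.4%, with a log2 fold change of -0.29 (SE 0.05, adjusted p = 1.5e-06). Apex2, its minor relative that works with the sliding clamp PCNA, had 18.4, 19.7 and 19.2 CPM in Control and 19.3, 19.3 and 21.3 CPM in STZ. It was the 1 gene of the 9 whose groups overlapped. Its log2 fold change was 0.07 (SE 0.09, adjusted p = 0.54), with a 95% interval from -0.11 to 0.24.

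Aptx encodes aprataxin, which removes AMP left on a strand end by an aborted ligation. It was the gene with the fewest reads, 129 to 208 per sample, at 12.2, 11.8 and 11.5 CPM in Control and 13.7, 13.7 and 13.9 CPM in STZ. The STZ samples lay above the Control samples and close together. The log2 fold change was 0.22 (SE 0.10, adjusted p = 0.074), with a 95% interval from 0.01 to 0.43. At 129 reads the counting error alone is 8.80% of the value, more than the spread of 2.95% seen among the Control samples.

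Polb, the polymerase that fills the short gap, had 30.4, 32.3 and 31.6 CPM in Control and 34.0, 33.5 and 34.8 CPM in STZ, higher in every STZ sample by a small margin. The log2 fold change of 0.12 (SE 0.07, adjusted p = 0.15) did not pass, and its 95% interval ran from -0.02 to 0.26. Lig3, the ligase that partners with the scaffold XRCC1 and is also the ligase of mitochondria, stood at 92.8, 94.8 and 89.0 CPM in Control and at 74.6, 70.7 and 74.7 CPM in STZ. All STZ samples were lower, with no value between 74.7 and 89.0 CPM. Lig3 fell by 20.2%, with a log2 fold change of -0.33 (SE 0.05, adjusted p = 4.3e-07).

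In all, the groups did not overlap in 8 of the 9 genes (4 higher and 4 lower in STZ), a share of 88.9% where 56.3% of all genes tested did not overlap. Parg, Polb and Aptx were among these 8 without passing the test. The plot of fold changes shows the order of the 9 genes and the range of each value when 1 sample was left out. The 5 called genes stayed called in all 6 of these fits, while the value of Apex2 ran from 0.02, without STZ replicate 3, to 0.10 and that of Parg from 0.11 to 0.17.

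**Figure D2:**
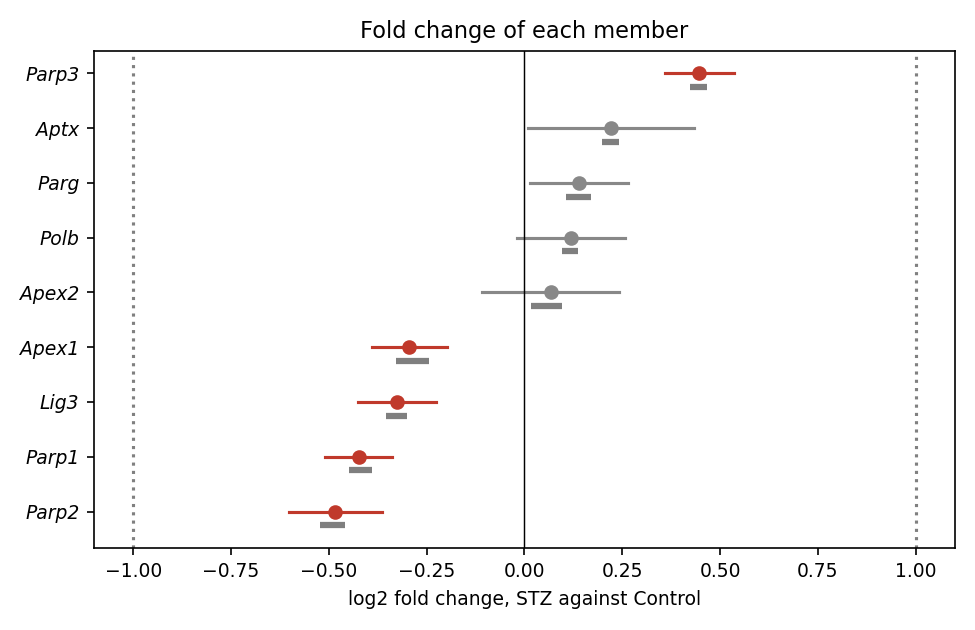
Log2 fold change of each gene (STZ against Control, x axis) with its 95% interval, in red where the adjusted p was under 0.05 and in grey elsewhere; the thick short bar below each point is the range over the 6 fits that leave out 1 sample, and dotted lines mark a log2 fold change of -1 and 1. The 5 called genes lie between -0.48 and 0.45, inside the dotted lines.

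Ratios between these genes within a sample do not depend on how the libraries were scaled. There were 1.80, 1.62 and 1.68 Parp1 reads per Parp3 read in the Control samples and 0.96, 0.93 and 0.89 in the STZ samples. Parp3 therefore passed from fewer to more reads than Parp1, which compares reads and not molecules, since transcript lengths were not used. The ratio of Parp1 to Parg, builder to eraser of the chains, was 4.76, 4.83 and 4.76 in Control and 3.42, 3.20 and 3.09 in STZ. The ratio of Lig3 to Polb was 2.94 ± 0.12 in Control and 2.15 ± 0.04 in STZ (SD, n = 3 each). That of Apex1 to Apex2 was 7.5 ± 0.67 and 5.86 ± 0.64, and that of Lig3 to Aptx 7.80 ± 0.20 and 5.33 ± 0.16, in the same order and with the same n. Of 7 ratios compared, 6 did not overlap between the groups, each with an exact two-sided permutation p of 0.1, the smallest that 3 samples against 3 allow, so none could pass 0.05. These pairs were picked with the levels known.

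**Figure D3:**
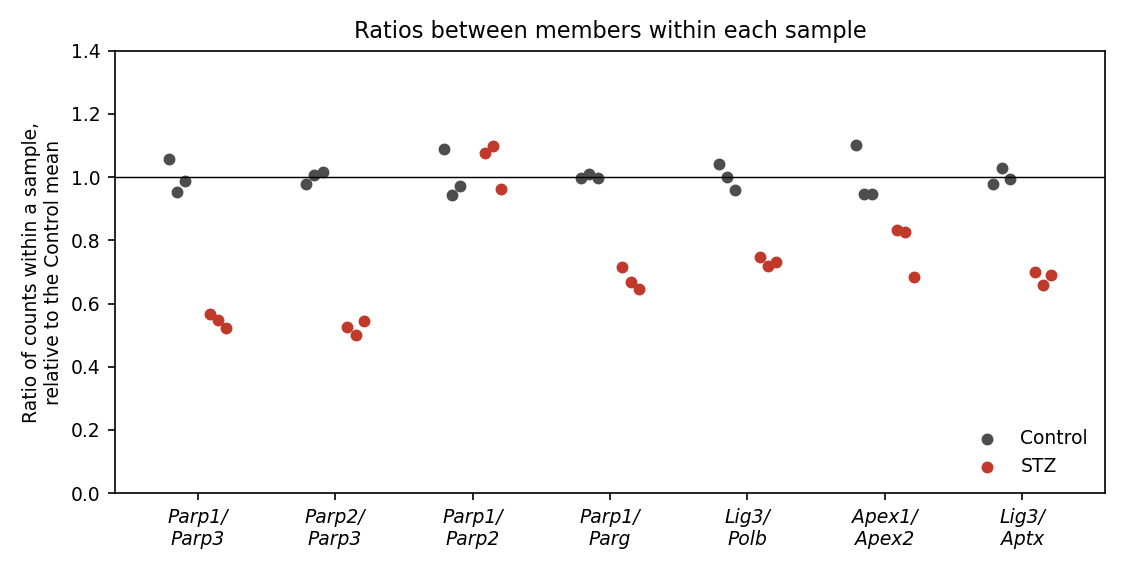
Ratio of reads of the first gene to reads of the second in each sample, divided by the Control mean of that ratio (y axis, no unit), with 1 dot per sample. The ratios to Parp3 fell to 0.55 and 0.52 of Control on a log-scale mean for Parp1 and Parp2, while Parp1 to Parp2 overlaps between the groups.

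The other genes of the pathway were taken from 5 lists with 54 genes, of which 50 were tested. Of these 50 genes, 11 were higher, 16 were lower and 23 did not pass, so 54% were called, near the 50.9% of all genes, and the median log2 fold change was 0.01. The counts of each list below are to be read against the 25.9% of all genes that were higher and the 25.1% that were lower, and no list was tested against other genes. The largest move by far was in Ung, the uracil-DNA glycosylase, with 22.6 ± 1.6 CPM in Control and 5.91 ± 0.60 CPM in STZ (SD, n = 3 each), a log2 fold change of -1.95 (SE 0.11, adjusted p = 1.3e-18), and it was the 1 gene of the 50 past both thresholds; RefSeq names 2 pseudogenes of it.

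Among scaffolds and end-processing factors, 2 of 7 genes rose and 3 fell, with a median log2 fold change of 0.03 (DESeq2 called 1 higher and 3 lower), so 5 of 7 were called where 50.9% of all genes were. Xrcc1, the highest of them and the scaffold that holds LIG3 and POLB at the break, rose from 75 ± 3.81 to 126 ± 9.99 CPM (SD, n = 3 each), a log2 fold change of 0.75 (SE 0.05, adjusted p = 7.6e-16), while its partner Lig3 fell. Hmgb1, a chromatin protein that assists long-patch repair, had the lowest value of this list, with a log2 fold change of -0.82 (SE 0.21, adjusted p = 9.1e-04). Only 30 to 75 reads per sample carried that value, and RefSeq names 23 copies of Hmgb1 whose reads unique mapping could discard.

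Of the 17 genes of gap filling and long-patch repair, 1 rose and 7 fell, with a median log2 fold change of -0.09, and 9 did not pass, a called share near the 50.9% of all genes. Pcna, the sliding clamp, was lowest, at 278 ± 11.1 CPM in Control and 167 ± 4.40 CPM in STZ (SD, n = 3 each), a log2 fold change of -0.73 (SE 0.04, adjusted p = 3.7e-19); RefSeq names 3 pseudogenes of it. Pole3, a small subunit of polymerase epsilon also found in chromatin remodelling complexes, was highest at 0.24 (SE 0.05, adjusted p = 3e-04), on the row with more reads of the 2 rows that carry its symbol. Among DNA glycosylases 9 of 11 were tested, of which 4 fell, 0 rose and 5 did not pass, with a median of -0.25, so that fewer were called than the 50.9% of all genes. At an unadjusted p under 0.05, 1 of these 9 was higher and 5 were lower, while DESeq2 called 0 higher and 3 lower and limma-voom 0 higher and 4 lower. The highest, Nthl1, which removes oxidized pyrimidines, had a log2 fold change of 0.21 (SE 0.09, adjusted p = 0.063).

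Of the PARP family beyond the 3 break sensors 12 genes were tested, of which 7 rose, 0 fell and 5 did not pass, with a median log2 fold change of 0.13, where 25.9% of all genes rose and 25.1% fell; none of the 12 was lower at an unadjusted p under 0.05, and DESeq2 called 4 higher and 0 lower and limma-voom 6 higher and 0 lower. Parp10, which attaches single ADP-ribose units, was highest at 0.51 (SE 0.06, adjusted p = 4.3e-10), from 58.9 ± 2.79 CPM in Control to 83.8 ± 6.61 CPM in STZ (SD, n = 3 each). Parp6 was lowest at -0.12 (SE 0.06, adjusted p = 0.11). Among 5 tested genes that assist PARPs or remove ADP-ribose, 1 rose and 2 fell, with a median of -0.17 (DESeq2 called 1 higher and 1 lower). Hpf1, the cofactor that directs PARP1 and PARP2 to serine, was lowest and fell by 0.26 on the log2 scale (SE 0.07, adjusted p = 0.0014). Adprs, the hydrolase that frees serine of the last ADP-ribose, was highest and rose by 0.22 (SE 0.05, adjusted p = 6.4e-04).

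**Figure D4:**
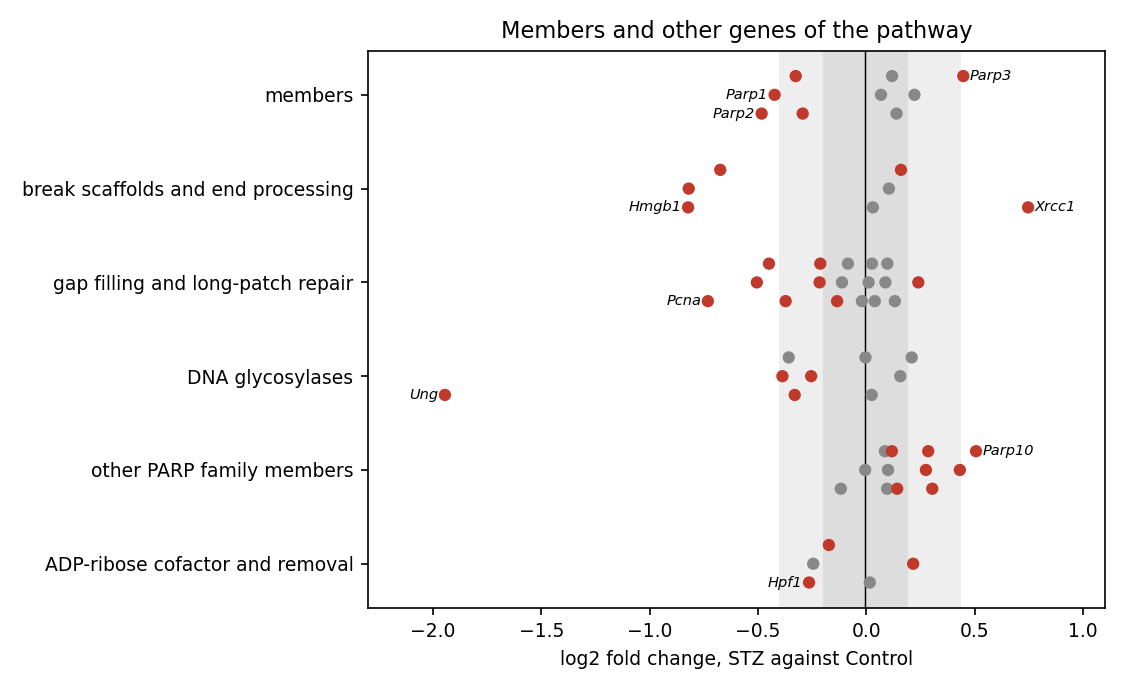
Log2 fold change (STZ against Control, x axis) of every tested gene of the 9 members and of the 5 pathway lists (rows), in red where the adjusted p was under 0.05; the vertical spread within a row has no meaning. The dark and light bands hold the middle 50% and 80% of all 11870 genes tested, and Parp1, Parp2 and Parp3 lie just outside the light band, which runs from -0.40 to 0.43.

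Neighbouring genes in the GRCr8 annotation, used for names only because the reads were mapped to another build, gave 9 tested genes on the 18 sides of the members, of which 2 rose, 3 fell and 4 did not pass, a called share near the 50.9% of all genes. Rrp9, a nucleolar protein of ribosomal RNA processing, overlaps Parp3 on the opposite strand and also rose, with 25.9 ± 0.93 CPM in Control and 34.0 ± 1.79 CPM in STZ (SD, n = 3 each) and a log2 fold change of 0.40 (SE 0.07, adjusted p = 1.3e-05). The libraries were stranded, but whether counting used strand is not given in the sources used here, so reads of Parp3 and Rrp9 may not be fully separated. Apex1 lies head to head with Osgep, a tRNA-modifying enzyme, and tail to tail with Pip4p1, a lipid phosphatase, and both were lower in STZ, at -0.78 for Osgep (SE 0.10, adjusted p = 1.2e-08) and -0.25 for Pip4p1 (SE 0.06, adjusted p = 4.4e-04). Tep1, next to Parp2, was lower at -0.12 (SE 0.05, adjusted p = 0.045).

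Dnaja1, a chaperone gene near Aptx, rose by 0.22 (SE 0.04, adjusted p = 2.8e-06), the same size as the value of Aptx that did not pass. Timm23, a mitochondrial import gene that lies head to head with Parg, had a log2 fold change of 0.03 (SE 0.05, adjusted p = 0.71). Ikbkb and Dkk4 beside Polb had 0.12 (SE 0.06, adjusted p = 0.12) and 0.04 (SE 0.28, adjusted p = 0.92). Pfkfb1, which overlaps Apex2, had -0.11 (SE 0.09, adjusted p = 0.33). Ccnb1ip1 overlaps Parp2 and Rffl overlaps Lig3, both on the opposite strand, and neither has a value here. With the strand setting unknown, the limit given for Parp3 and Rrp9 also holds for Parp2, Lig3 and Apex2 and the genes that overlap them. Gpr62 beside Parp3 never exceeded 2 reads and was not tested. RefSeq names 2 copies each of Parg, Apex1 and Apex2, so unique mapping could withhold reads from these genes.

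The genes whose pattern over the 6 samples was most like that of Parp3 were Gne, an enzyme of sialic acid synthesis, Dgka, a diacylglycerol kinase, and Tcirg1, a subunit of the vacuolar proton pump. The Pearson correlation of log2 CPM with Parp3 was 0.9995, 0.9988 and 0.9987 over 6 samples. With 3 samples in each group and a difference between the groups in all of these genes, this likeness mostly restates that difference. The log2 fold changes of Gne, Dgka and Tcirg1 were 0.63, 1.26 and 0.71.

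Reads counted to genes came to 10430924 to 15191349 per sample, with 10430924 to 12737131 in Control and 11658253 to 15191349 in STZ. The 9 genes together took 0.0714% to 0.0734% of these counted reads in Control and 0.0636% to 0.0653% in STZ. Mitochondrially encoded genes took 3.8% to 4.23% of counted reads over all samples. The labelled identity as epithelial cells rested on Krt8, at 1150 CPM in Control and 1600 CPM in STZ, while Krt18 had at most 3 reads per sample. Cdh1, with 16 to 35 reads, was lower at -0.69 (SE 0.27, adjusted p = 0.03, not called by DESeq2). Krt7, with 13 to 19 reads, did not pass at -0.16 (SE 0.32, adjusted p = 0.7). Cldn4 had at most 4 reads, and Krt19, Epcam and Cldn7 had no row under these symbols. Of 7 proximal tubule markers, no sample held more than 10 reads of Cubn, 7 of Slc5a2, 4 of Lrp2, 2 of Slc34a1 or 1 of Slc2a2. Only Aqp1 and Ggt1 could be tested. Aqp1 fell from 13.1 ± 3.68 to 5.43 ± 0.66 CPM (SD, n = 3 each), at -1.25 (SE 0.16, adjusted p = 9.4e-09), past both thresholds. Ggt1 rose from 45.1 ± 2.69 to 75.1 ± 6.72 CPM (SD, n = 3 each), at 0.73 (SE 0.06, adjusted p = 1.9e-13). The 7 markers summed to 57.8 to 60.4 CPM in Control and 74.9 to 87.1 CPM in STZ, most of it Ggt1. The summed level of fibroblast markers, of which 6 of 7 were in the table and 2 of 3 tested fell, was 83.4 to 94.8 CPM in Control and 43.3 to 53.7 CPM in STZ. Pdgfra had at most 4 reads, Col1a2 at most 2 and Lum at most 1. Col3a1 fell from 53.9 to 21.3 CPM, by 1.35 on the log2 scale (SE 0.08, adjusted p = 2.5e-18). Col1a1 went from 30.3 to 25.4 CPM, at -0.27 (SE 0.09, adjusted p = 0.0092), with overlapping groups. Postn did not pass at -0.45 (SE 0.19, adjusted p = 0.053). Endothelial markers summed to 2.64 to 4.15 CPM in Control and 1.65 to 2.40 CPM in STZ, with Pecam1 and Cdh5 at no more than 2 reads. Vwf, the 1 endothelial marker tested, with 6 to 36 reads, was lower at -1.15 (SE 0.30, adjusted p = 0.0013), past both thresholds. Macrophage markers summed to 1.09 to 2.07 CPM in Control and 2.26 to 2.54 CPM in STZ, with Ptprc and Adgre1 at no more than 1 read. Cd68, with 7 to 29 reads, was the 1 macrophage marker tested and did not pass at 0.40 (SE 0.30, adjusted p = 0.28). Csf1r had at most 7 reads, and Itgam had no row under that symbol. The part of these shifts in the results on the repair genes was not tested.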

How the data were processed

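RNA of 3 Control and 3 STZ samples of NRK-52E cells was read on a HiSeq platform from TruSeq stranded mRNA libraries. Reads were aligned by the authors against Rnor6 using STAR 2.7.10a. They counted uniquely mapped reads with featureCounts of the Subread package and deposited raw counts per gene. The annotation release and strand setting are not given in the sources used here. Unique mapping lowers counts of genes with near-identical copies.

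Columns were matched to samples by title. Low genes were removed with filterByExpr, libraries were scaled by TMM, and the groups were compared over all 11870 remaining genes by the quasi-likelihood test of edgeR 4.0.16 in R 4.3.3. Standard errors are the absolute log2 fold change over the square root of F. Total counts limit the precision of low genes, and intervals cover the spread between these samples. Alternatives were 3 filters, 3 scalings, 4 tests (DESeq2 1.42.0, limma-voom 3.58.1, edgeR's exact and likelihood ratio tests), a block for the replicate number, and leaving out each sample. The fitting steps were tested on simulated counts.

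Members and lists were chosen with earlier results of these data known. Named genes are the members, the highest and lowest of each pathway list with Xrcc1, neighbours, and the 3 genes most like the member with the smallest p. Cell markers were described by sums and counts, and those named singly were chosen after their values were seen.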

Additional observations from a re-analysis of the deposited data

How the results depend on the processing

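The number of the 9 genes past the adjusted p-value was 5 under 16 of 17 alternatives, with Parp1, Parp2, Lig3 and Apex1 lower and Parp3 higher in each; without STZ replicate 1 it was 6, where Parg also passed. The log2 fold changes of the 9 genes kept their direction in all 153 refits, and 152 of these stayed on the same side of the threshold. No alternative placed any of the 9 past both thresholds. The count of all genes past both thresholds, 400, was 249 when at least 10 counts in every sample were required, which tests 11297 genes in place of 11870. It was 585 with no filter on low counts (18930 genes) and 565 with at least 0.5 CPM in 1 sample or more (13209 genes). Scaling by library size only moved the median of all genes from -0.01 to -0.04 and lowered the higher share of all calls from 50.8% to 43.3%, with the same calls among the 9 genes.

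The same replicate numbers are used in both groups. For each number, the departures of its Control sample and its STZ sample from their own group means were correlated across genes. In replicate order the values were 0.0459, -0.0276 and 0.0933 over 10933 genes, which are not independent. No strong effect shared by samples with the same number was seen. Whether such samples were set up together is not said in the sources used here, and weak correlations cannot decide it. The fit with the replicate block called 5 of the 9 genes and 6199 of all genes, against 6046 without it. Depth limits Aptx and Apex2 most, at 129 to 319 reads per sample.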
